A study of Homo sapiens with 20 samples.

Results

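X5050 and GSK343, each given alone to K562 cells for 72 h, were compared directly with each other. The comparison rests on 4 of the 20 libraries in the series, chosen by their labels: replicates 1 and 2 of cells treated with X5050 at 100 uM, and replicates 1 and 2 of cells treated with GSK343 at 5 uM. The doses differ, so the contrast sets 1 treatment against another and not equal amounts of drug. K562 is a human erythroleukemia cell line that carries a red cell and platelet lineage programme. The series has 10 groups of 2 libraries, on total RNA with ribosomal RNA removed. The 12 libraries of its drug arm also hold DMSO for 72 h and both drugs together, at the doses above, for 8, 24 and 72 h. The other 8 libraries come from CRISPR excision of silencer elements and were not used here. DMSO libraries took no part in the test of X5050 against GSK343.

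GSK343 inhibits EZH2, the enzyme of Polycomb repressive complex 2 (PRC2) that methylates lysine 27 of histone H3 and so helps to keep developmental genes silent. X5050 was described as a compound that lowers the amount of the REST protein. REST is a zinc finger repressor that binds the RE1 element near neuronal genes and recruits corepressors with histone deacetylase and demethylase activity. Blood cells normally keep the neuronal targets of REST off.

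The X5050 libraries held 27806121 and 25185720 gene counts and the GSK343 libraries 26372694 and 31149860. Levels are given below as CPM, counts divided by the effective library size and scaled, and differences as log2 fold changes of X5050 over GSK343, so a positive value is higher with X5050. Values after ± are standard errors of a log2 fold change. Replicates are labelled as separate libraries and nothing in the labels says that they came from separate cultures, so the p-values measure the spread between libraries. In bulk RNA, fewer cells of a kind and less RNA per cell cannot be told apart.

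The 10 K562 identity markers had counts in all 4 libraries, though HBZ had only 4 over both GSK343 libraries. GATA1, the main erythroid transcription factor, had 193 and 166 CPM with X5050 and 185 and 187 CPM with GSK343. The summed level of the 10 markers was 5950 and 2960 CPM in X5050 replicates 1 and 2, and 2230 and 1650 CPM in GSK343 replicates 1 and 2. X5050 replicate 1 thus stood highest, mainly through globin transcripts and TFRC. It was also the library farther from the GSK343 cells: its root mean square difference in log2(CPM + 1) over 19339 genes was 0.553 and 0.61 from the 2 GSK343 libraries, against 0.46 and 0.505 for X5050 replicate 2. Replicates of the same drug differed by 0.284 for X5050 and by 0.245 for GSK343. Fewer genes had a count with X5050, 25325 and 25744, than with GSK343, 27194 and 27237, at similar depth.

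Neither drug target differed in transcript level by a margin that passed the test. EZH2 had 130 and 121 CPM with X5050, against 141 and 114 CPM with GSK343, and the libraries overlapped (log2 fold change -0.03 ± 0.10, edgeR adjusted p = 0.881). REST had 74.6 and 79.3 CPM with X5050, against 62.7 and 67.7 CPM with GSK343. Both X5050 libraries were the higher ones for REST, but the difference did not pass the test (0.24 ± 0.11, edgeR adjusted p = 0.11), except when genes with 1 or more counts were all kept (edgeR adjusted p = 0.0337). Transcript levels do not measure the activity of EZH2 or the amount of REST protein, so they check neither drug. FGF18, a growth factor gene near the silencers excised in the other arm, was close to silent, with 4 counts over both X5050 libraries and 19 over both GSK343 libraries (-2.09 ± 0.77, edgeR adjusted p = 0.0533).

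Across the transcriptome, the large differences between X5050 and GSK343 cells were mostly genes lower with X5050. Of 19339 genes tested, 5266 (27.2%) passed an adjusted p of 0.05 in edgeR's quasi-likelihood test and are called here. X5050 was higher for 2019 of them (10.4% of genes tested) and lower for 3247 (16.8%). The sizes differed more than the counts. Called genes higher with X5050 had a median log2 fold change of 0.46, and those lower with X5050 a median of -1.24. Beyond 1 log2 unit, 185 genes were higher and 1893 lower, and beyond 3 log2 units 19 were higher and 540 lower. The median over all genes tested was -0.02. Of all calls 38.3% were higher with X5050, a share that was 48.5% with DESeq2, 46.3% with RLE factors, 47.3% with the GC trend removed and 49.3% when genes with 1 or more counts were all kept. Without X5050 replicate 2 the balance turned, with 3372 higher and 2815 lower, 54.5% of calls higher.

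Counts of calls depended on single libraries. Without X5050 replicate 2 there were 3372 genes higher with X5050, without GSK343 replicate 1 there were 1301 and without GSK343 replicate 2 there were 1261. Lower calls numbered 1909 without X5050 replicate 1 and 1925 without GSK343 replicate 2. With any 1 library left out in turn, 719 of the higher and 1475 of the lower calls stood every time. The genes described below were preferred, after their values were seen, where their call stood in that way, and the exceptions are named.

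**Figure D1:**
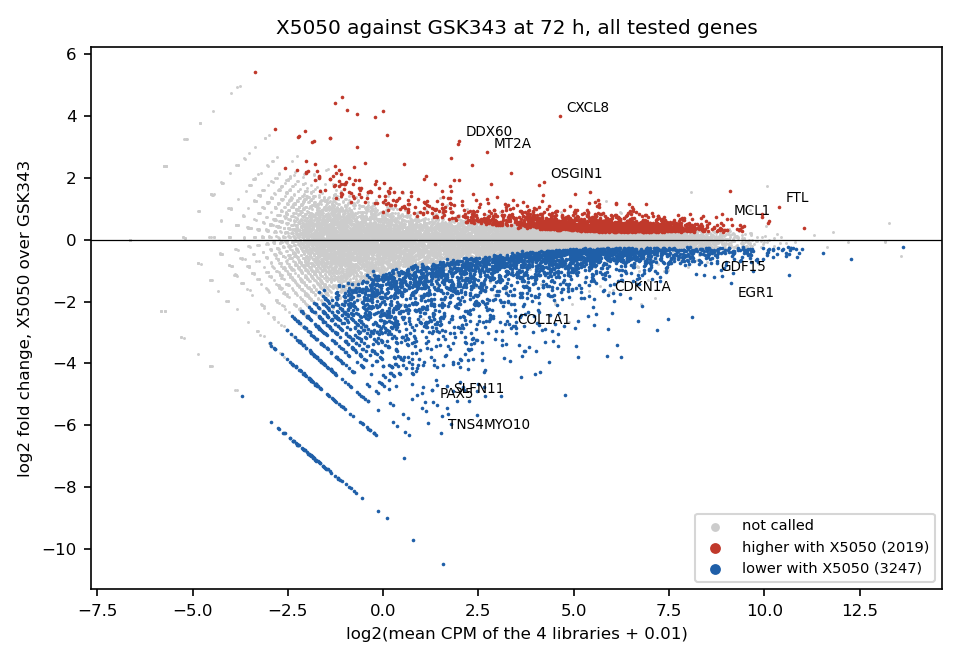
Every tested gene, with log2 of the mean CPM of the 4 libraries plus 0.01 on the x axis and the log2 fold change of X5050 over GSK343 on the y axis. Red points are the 2019 genes called higher with X5050 and blue points the 3247 called lower, and grey points were not called. The blue cloud reaches far lower than the red cloud reaches up, most of all among genes of low level, and the diagonal streaks at the bottom left are genes with 0 or a few counts in the X5050 libraries.

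In both directions, the strongly separated genes were mostly below 1 CPM with the drug of the lower level. The 185 genes higher with X5050 beyond 1 log2 unit had medians of 1.82 CPM with X5050 and 0.709 CPM with GSK343. Of these 185, 60.5% were below 1 CPM with GSK343 and 32.4% with X5050. Among the 1893 genes lower with X5050 beyond 1 log2 unit, the median level was 0.51 CPM with X5050 and 2.37 CPM with GSK343. Of these genes 64.3% were below 1 CPM with X5050 and 23.8% below 1 CPM with GSK343, against 29.6% and 25.2% of all genes tested. They were picked for being lower in these same X5050 libraries, so their low X5050 levels follow in part from that choice. No read was counted for 70 of them in either X5050 library, and such genes pass the filter of low genes only through other libraries. Among all genes tested, 93 had no count with X5050 and 27 had none with GSK343. By gene type, 215 of 1096 long intergenic noncoding RNAs (19.6%) were lower with X5050 and 23 were higher. Among 13512 protein-coding genes 2631 were lower (19.5%) and 1866 higher (13.8%). The share of genes called lower with X5050 ran between 10.7% on chromosome 16 and 23.0% on the X chromosome, the ends of the range over chromosomes.

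The 14 protein-coding genes with the largest differences in favour of X5050 were led by an inflammatory chemokine. CXCL8, the neutrophil chemoattractant interleukin 8, had 51.2 and 41.9 CPM with X5050, against 2.8 and 3.02 CPM with GSK343. The groups were far apart (4.00 ± 0.27, edgeR adjusted p = 1.52e-05). DDX60, a helicase of antiviral RNA sensing, had 10.2 and 4.17 CPM with X5050 and 0.743 and 0.802 CPM with GSK343 (3.21 ± 0.52, edgeR adjusted p = 0.00196), and gave 2.48 without X5050 replicate 1 and 3.80 without X5050 replicate 2. MT2A, a metal-binding metallothionein, had 11.5 and 11.8 CPM with X5050 and 1.13 and 2.1 CPM with GSK343 (2.82 ± 0.40, edgeR adjusted p = 0.00247). Metallothionein genes are near-identical copies, so the split of reads among them is uncertain.

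VGF, ARC and AHNAK2 were in the same group. VGF, a secreted neuropeptide precursor and a classical REST target, had 20.8 and 12.6 CPM with X5050 and 3.47 and 4.01 CPM with GSK343 (2.15 ± 0.24, edgeR adjusted p = 0.000137). ARC, the activity-regulated cytoskeletal gene of neurons, had 4.3 and 2.7 CPM with X5050 and 0.495 and 1.14 CPM with GSK343. AHNAK2, a large scaffold protein gene, had 6.85 and 10.2 CPM with X5050 and 1.34 and 1.85 CPM with GSK343. In each of these 3 genes the lower X5050 library was above both GSK343 libraries. The log2 fold changes were 2.07 ± 0.30 for ARC and 2.40 ± 0.25 for AHNAK2, with edgeR adjusted p of 0.00024 and 9.66e-06. Without GSK343 replicate 2, the value for ARC was 2.84.

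OSGIN1, an oxidative stress-induced growth inhibitor gene, had 31.7 and 26.8 CPM with X5050 and 9.24 and 7 CPM with GSK343 (1.85 ± 0.13, edgeR adjusted p = 1.45e-07). ITGB3, the beta 3 integrin of platelets, had 4.44 and 3.51 CPM with X5050 and 1.34 and 0.956 CPM with GSK343. Its log2 fold change was 1.80 ± 0.26, with edgeR adjusted p = 0.00014. S100A16, RRAD, VEPH1 and IFIT3 were also called, with log2 fold changes of 2.45, 1.97, 1.94 and 1.92, and their groups did not overlap. RRAD gave 2.99 without GSK343 replicate 2. HBA2 and TUBB1 completed the group and were highest in X5050 replicate 1. HBA2 (3.09 ± 0.87, edgeR adjusted p = 0.0456) lost its call without GSK343 replicate 1 (edgeR adjusted p = 0.175) or GSK343 replicate 2 (0.209). TUBB1 (2.65 ± 0.67, edgeR adjusted p = 0.0246) likewise lost its call without GSK343 replicate 1 (edgeR adjusted p = 0.0964) or GSK343 replicate 2 (0.15). Without X5050 replicate 1 the log2 fold changes were 1.63 for HBA2 and 1.48 for TUBB1.

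The 14 largest differences in the other direction were genes near silence with X5050 and at a few CPM with GSK343. SH3RF3, a ubiquitin ligase scaffold of JNK signalling, had 0 counts in both X5050 libraries, against 2.05 and 4.84 CPM with GSK343. Taking 3 counts over both X5050 libraries as the floor, it was at least 67.2-fold lower with X5050 (edgeR adjusted p = 0.000306). MVB12B, a subunit of the ESCRT-I sorting complex, likewise had 0 counts with X5050 and 2.3 and 1.94 CPM with GSK343, at least 40-fold lower. DOCK5, a Rac activator, had 1 count over both X5050 libraries and 177 over both GSK343 libraries. Its ratio of GSK343 over X5050 was 166, with a 95% counting interval between 29.4 and 6590. Unstranded counts gave DOCK5 a log2 fold change of -4.29, against -7.06 with the stranded counts used here.

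TNS4, a tensin that links integrins to actin, had 0.0678 and 0.0731 CPM with X5050, against 5.17 and 6.17 CPM with GSK343 (-6.25 ± 0.46, edgeR adjusted p = 1.66e-07). MYO10, the myosin of filopodia, had 0.0678 and 0.365 CPM with X5050, against 9.7 and 12 CPM with GSK343 (-5.65 ± 0.47, edgeR adjusted p = 9.6e-07). Both genes were clearly expressed in both GSK343 libraries and near 0 in both X5050 libraries. C1orf21, KBTBD11, SDK2 and ADGRG6 followed with log2 fold changes of -5.96, -5.91, -5.69 and -5.64. These values rest on few X5050 counts: without X5050 replicate 1 they were -4.82 for MYO10, -6.72 for KBTBD11, -4.61 for SDK2 and -4.77 for ADGRG6. DPPA4, a gene of pluripotent cells, had 3 counts over both X5050 libraries and 188 over both GSK343 libraries, a ratio of 58.7 (counting interval 19.8 to 287). TACC2, DRGX and FMOD each had 2 counts over both X5050 libraries and 192, 156 and 141 over both GSK343 libraries. FRG2, which belongs to a family of near-identical copies, lost its call without X5050 replicate 1 (edgeR adjusted p = 0.0578).

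Among noncoding and other gene types, the largest differences below GSK343 were TRBV20-1, a T cell receptor beta segment, then LY86-AS1, OR2A1-AS1 and NBEAP1. TRBV20-1 had 0 counts with X5050 and 3.33 and 8.6 CPM with GSK343, at least 117-fold lower with X5050. OR2A1-AS1 had 0.169 and 0.548 CPM with X5050 and 8.56 and 12.6 CPM with GSK343 (-4.89 ± 0.39, edgeR adjusted p = 4.19e-07, and -4.20 without X5050 replicate 1). In the other direction, LINC02154 had 7.35 and 7.67 CPM with X5050 and 2.3 and 3.02 CPM with GSK343 (1.49 ± 0.18, edgeR adjusted p = 1.93e-05). BGLT3, a noncoding RNA of the beta globin locus, had 6.61 and 3.62 CPM with X5050 and 2.37 and 1.08 CPM with GSK343 (1.58 ± 0.34, edgeR adjusted p = 0.00391, and 2.24 without GSK343 replicate 1).

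**Figure D2:**
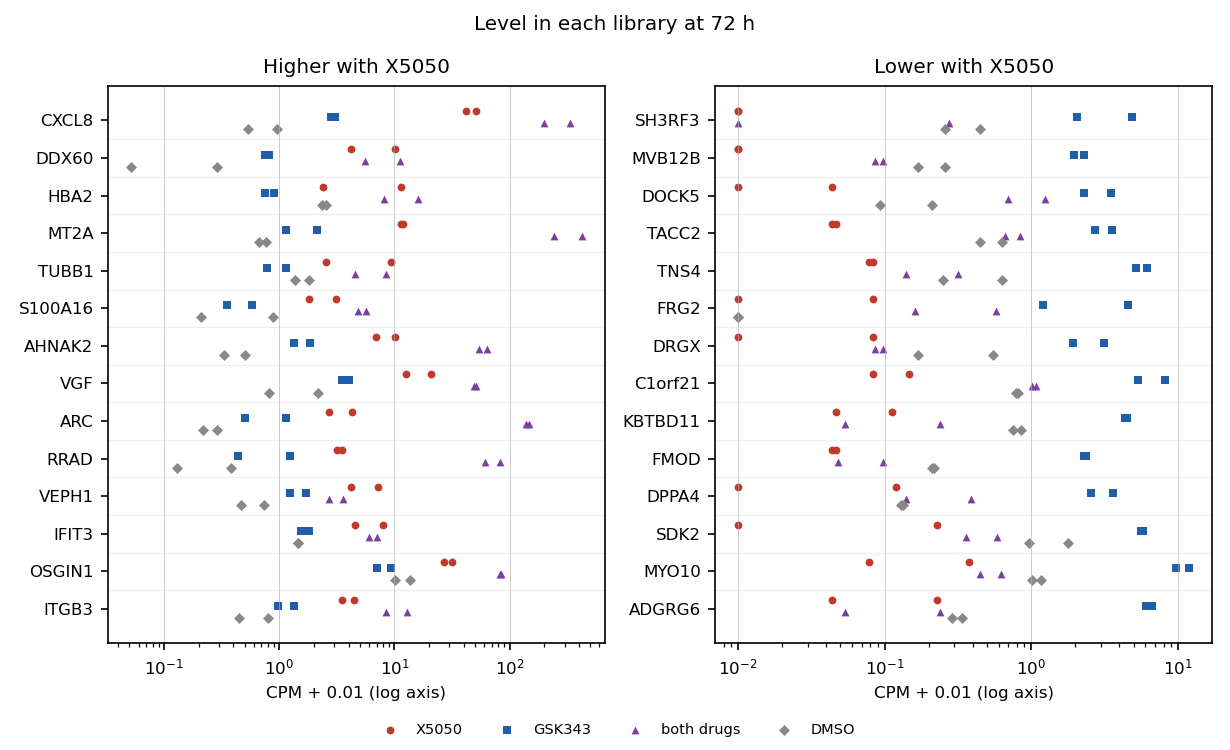
CPM plus 0.01 in each library at 72 h, on a log axis, for the 14 protein-coding genes with the largest differences in each direction, 1 gene a row. Red circles are X5050, blue squares GSK343, purple triangles both drugs and grey diamonds DMSO, with 1 point per library. On the left the red points lie right of the blue ones, and for CXCL8, MT2A, ARC and RRAD the purple points lie farther right still. On the right the red points sit near 0 while the blue points lie between 1.2 and 12 CPM.

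Neuronal REST targets, the genes that REST is known to repress, were divided. Of 36 listed genes 23 had enough counts to be tested, and 9 were higher and 5 lower with X5050. The percentages, 39.1% and 21.7%, stand beside 10.4% and 16.8% of all genes tested, and the median log2 fold change of the 23 was 0.29. Leaving out any 1 library gave 7 to 9 higher and 5 to 6 lower. The RE1 element is bound by REST through a left arm and a right arm, searched here as TTCAGCACC and GGACAGCGC on both strands. Of the 22 list members with a RefSeq promoter (GRCh38.p14, 250 bases before to 50 after the start) 6 held an arm, against 0.937% of 35116 promoters. Their windows follow, because 4 of the genes were higher and 2 lower with X5050. Capitals mark the arm, on the strand of the gene, and a reverse match reads GGTGCTGAA or GCGCTGTCC.

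VGF, chr7:101165550-101165598 (-): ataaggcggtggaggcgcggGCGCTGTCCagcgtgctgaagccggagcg
SYN1, chrX:47620062-47620107 (-): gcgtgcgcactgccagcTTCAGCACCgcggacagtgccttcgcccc
BSN, chr3:49554336-49554384 (+): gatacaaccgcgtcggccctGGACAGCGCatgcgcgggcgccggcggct
CELSR3, chr3:48663006-48663136 (-): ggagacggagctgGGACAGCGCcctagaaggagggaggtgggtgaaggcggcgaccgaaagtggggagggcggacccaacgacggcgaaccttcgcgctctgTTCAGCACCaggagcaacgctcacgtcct
SCG3, chr15:51681491-51681552 (+): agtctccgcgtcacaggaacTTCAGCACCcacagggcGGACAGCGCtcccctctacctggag
UNC13A, chr19:17688320-17688385 (-): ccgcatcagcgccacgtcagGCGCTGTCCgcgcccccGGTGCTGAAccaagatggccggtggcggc

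A match is only letters in a window, and says nothing of REST binding in these cells. By exact letters SCG3, UNC13A and CELSR3 each hold both arms, and the first 2 were lower with X5050 while CELSR3 was higher. In CELSR3 the right arm comes first and the left arm far downstream, unlike the close pairs of SCG3 and UNC13A. In VGF and SYN1, letters close to the other arm follow the marked arm (cgtgctgaa and ggacagtgc), which the exact search does not count. A lone marked arm thus does not mean that the other is absent. SCG3, a granin of secretory granules, had 10.5 and 9.5 CPM with X5050, against 33.7 and 34.9 CPM with GSK343 (-1.78 ± 0.12, edgeR adjusted p = 1.13e-07). UNC13A, which primes synaptic vesicles, had 2.51 and 3.07 CPM with X5050 and 12.4 and 9.34 CPM with GSK343 (-1.96 ± 0.22, edgeR adjusted p = 1.27e-05). GAD1, which makes the transmitter GABA, had 21.8 and 22 CPM with X5050 and 38.7 and 46.3 CPM with GSK343. In all 3 genes both X5050 libraries were the lower ones, and GAD1 changed by -0.96 ± 0.13 (edgeR adjusted p = 8.35e-05). SCN3B, a sodium channel subunit, and TMEM59L completed the lower group at -3.52 ± 0.64 and -1.85 ± 0.38.

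The members higher with X5050 included genes of synaptic vesicles and of the neural membrane. SYN1, synapsin of synaptic vesicles, had 2.44 and 2.92 CPM with X5050, against 0.779 and 1.33 CPM with GSK343 (1.33 ± 0.28, edgeR adjusted p = 0.00266). SYP, synaptophysin, had 6.44 and 5.3 CPM with X5050 and 2.97 and 1.94 CPM with GSK343 (1.26 ± 0.24, edgeR adjusted p = 0.00108). BSN, a scaffold of the presynaptic zone, had 7.05 and 3.29 CPM with X5050 and 1.66 and 1.45 CPM with GSK343 (1.74 ± 0.33, edgeR adjusted p = 0.00176). The groups did not overlap in any of the 3. L1CAM, a neural adhesion protein, and TUBB3, the neuronal beta tubulin, were higher by 1.14 ± 0.23 and 1.93 ± 0.40 log2 units. CELSR3 and STMN3, at 0.55 and 0.44 log2 units, were the smallest of the 9. CELSR3 lost its call without GSK343 replicate 2 (edgeR adjusted p = 0.112), and STMN3 without GSK343 replicate 1, GSK343 replicate 2 or X5050 replicate 1 (0.153, 0.14 and 0.326).

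Called genes of the repressor machinery differed by less than 1 log2 unit, with 1 exception. Of the 12 PRC2 genes tested, 3 were higher (25.0%) and 1 lower (8.33%) with X5050, with a median of 0.13. Of all genes tested, 10.4% were higher and 16.8% lower. MTF2, an accessory subunit that recruits PRC2 to CpG islands, had 87.8 and 83.4 CPM with X5050 and 59.8 and 60.9 CPM with GSK343 (0.50 ± 0.10, edgeR adjusted p = 0.00162). EED, the subunit that reads the methyl mark, and EZH1, the alternative enzyme, were higher by 0.44 and 0.48 log2 units. EED lost its call without GSK343 replicate 1 (edgeR adjusted p = 0.0761) and EZH1 without GSK343 replicate 2 (0.117). The lower one was CXorf67, an inhibitor of PRC2 also named EZHIP, with 5 counts over both X5050 libraries and 46 over both GSK343 libraries, and its call was lost without GSK343 replicate 2 (edgeR adjusted p = 0.159) or X5050 replicate 1 (0.187). The list had 5 higher calls without X5050 replicate 2. Of 14 genes for REST and its corepressors, 4 were higher (28.6%) and 1 lower (7.14%), between -0.67 and 0.41 log2 units. SIN3A, SIN3B, EHMT2 and RCOR3 were the higher ones and RCOR2 the lower one, and none stayed called throughout. The edgeR adjusted p without GSK343 replicate 1 was 0.188 for EHMT2 and 0.176 for RCOR3, and without GSK343 replicate 2 it was 0.133 for SIN3A, 0.106 for SIN3B, 0.226 for RCOR2 and 0.0706 for RCOR3. The count of higher calls was 2 without GSK343 replicate 1 and 1 without GSK343 replicate 2 or with the X5050 and GSK343 libraries only.

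Developmental genes that PRC2 commonly represses were lower with X5050 than with GSK343 or not called. Of 38 developmental transcription factors, 17 were tested, 6 were lower with X5050 (35.3%) and 0 higher, and the median was -0.64. Of all genes tested, 16.8% were lower. PAX5, a master regulator of B cells, had 0.102 and 0.146 CPM with X5050, against 3.57 and 6.07 CPM with GSK343 (-5.25 ± 0.49, edgeR adjusted p = 1.98e-06). RUNX3, a Runt family factor, had 0.237 and 0.11 CPM with X5050 and 1.45 and 2.5 CPM with GSK343 (-3.47 ± 0.54, edgeR adjusted p = 0.000233, and -4.07 without X5050 replicate 1). MSX1 had 6.07 and 6.91 CPM with X5050 and 11.7 and 16 CPM with GSK343 (-1.10 ± 0.18, edgeR adjusted p = 0.00036). No X5050 library reached a GSK343 library in any of the 3. GATA6 was also lower (-2.50 ± 0.49). GATA4 and NKX2-2 were called lower too, but neither call stood with each library left out. Without X5050 replicate 2 they gave -3.05 and -2.27. WT1, at 46 and 44.8 CPM with X5050 and 44 and 42.6 CPM with GSK343, was the most abundant of the 17 and gave 0.07 (edgeR adjusted p = 0.683).

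All 17 tested HOX genes, which set position along the body axis, had negative log2 fold changes, with a median of -0.52. Only 5 were called (29.4%), all lower with X5050, and the count was 3 without GSK343 replicate 1, 1 without GSK343 replicate 2 and 2 without X5050 replicate 1. It was also 2 with DESeq2, with RLE factors, with the GC trend removed, with no filter beyond 1 count or with the X5050 and GSK343 libraries only, and 3 with all 12 libraries, with the replicate block or with the treated libraries of 72 h only. HOXD8 was the member whose call stood throughout, with 0.136 and 0.292 CPM with X5050 and 1.84 and 4.41 CPM with GSK343 (-3.87 ± 0.61, edgeR adjusted p = 0.000321, and -3.07 without GSK343 replicate 2). HOXD3 had 0 counts with X5050 and 28 over both GSK343 libraries, at least 8.75-fold lower, and its call was lost without X5050 replicate 1 (edgeR adjusted p = 0.0522). HOXB9, the most abundant, had 180 and 216 CPM with X5050 and 233 and 264 CPM with GSK343 (-0.33 ± 0.11, edgeR adjusted p = 0.0288), and lost its call without X5050 replicate 1 (0.432) or GSK343 replicate 2 (0.289). Of 39 listed HOX genes, 22 were too low to be tested, the whole HOXA cluster among them.

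Around the silencers of the excision arm, on the long arm of chromosome 5, 4 of 7 tested genes were lower with X5050 (57.1%). None was higher, and of all genes tested 16.8% were lower. SH3PXD2B, an adaptor of podosomes, had 1.63 and 1.68 CPM with X5050, against 12.5 and 18.6 CPM with GSK343 (-3.23 ± 0.24, edgeR adjusted p = 1.74e-07). UBTD2 had 0.644 and 0.731 CPM with X5050 and 3.65 and 3.52 CPM with GSK343 (-2.38 ± 0.27, edgeR adjusted p = 1.33e-05). STK10, a kinase of lymphocytes, had 12.1 and 12 CPM with X5050 and 22.3 and 23.7 CPM with GSK343 (-0.93 ± 0.13, edgeR adjusted p = 0.000118). The groups did not overlap in any of these 3 genes. NPM1, a nucleolar chaperone, gave -0.33 ± 0.09 and lost its call without GSK343 replicate 2 (edgeR adjusted p = 0.227) or X5050 replicate 2 (0.244).

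Metallothioneins, small cysteine-rich proteins that bind zinc and copper, were among the genes most clearly higher with X5050. Of 13 tested genes for metallothioneins and zinc handling, 7 were higher (53.8%) and 0 lower, with 5 to 7 higher when any 1 library was left out. No median is given, because it falls on members with 1 count. The zinc sensor MTF1 switches these genes on through metal response elements, whose core was searched as TGCACNC or TGCGCNC on both strands. A match was found in 7 of the 10 list members with a RefSeq promoter, against 29.6% of all 35116 promoters, so the core is common. The promoters of MT1H and MT2A are shown because each holds 8 matches. Capitals mark the core, and a reverse match reads GNGTGCA or GNGCGCA. Coordinates are GRCh38.p14.

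MT1H, chr16:56669564-56669863 (+): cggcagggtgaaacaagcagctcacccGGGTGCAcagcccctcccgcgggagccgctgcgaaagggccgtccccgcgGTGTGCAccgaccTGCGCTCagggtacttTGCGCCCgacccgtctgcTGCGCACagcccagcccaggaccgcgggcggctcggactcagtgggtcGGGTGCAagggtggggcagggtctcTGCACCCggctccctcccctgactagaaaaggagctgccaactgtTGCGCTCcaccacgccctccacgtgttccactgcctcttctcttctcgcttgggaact
MT2A, chr16:56608334-56608633 (+): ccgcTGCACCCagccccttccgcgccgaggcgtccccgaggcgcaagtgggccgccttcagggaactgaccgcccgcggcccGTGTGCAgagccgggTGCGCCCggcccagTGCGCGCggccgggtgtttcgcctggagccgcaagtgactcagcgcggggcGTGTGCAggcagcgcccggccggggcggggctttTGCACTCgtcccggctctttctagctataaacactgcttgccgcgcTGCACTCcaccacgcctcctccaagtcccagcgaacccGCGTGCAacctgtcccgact

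MT1G had 2.17 and 1.72 CPM with X5050, against 0.0708 and 0.278 CPM with GSK343 (3.40 ± 0.35, edgeR adjusted p = 4.79e-06), and gave 2.79 without GSK343 replicate 1 and 4.73 without GSK343 replicate 2. MT1H had 51 counts over both X5050 libraries and 2 over both GSK343 libraries, a ratio of 27.2 (counting interval 7.16 to 231, edgeR adjusted p = 0.000107). MT1X had 1.46 and 2.27 CPM with X5050 and 0.142 and 0.0617 CPM with GSK343, and lost its call without GSK343 replicate 2 (edgeR adjusted p = 0.0567). All 3 were low in absolute level even with X5050. SLC30A1, the exporter that removes zinc from the cell, had 68.7 and 48.7 CPM with X5050 and 23.1 and 28.3 CPM with GSK343. It gave 1.19 ± 0.28 (edgeR adjusted p = 0.0195), and did not stay called without GSK343 replicate 1 (0.102), GSK343 replicate 2 (0.0568) or X5050 replicate 1 (0.104). MTF1 itself had 25.6 and 23.7 CPM with X5050 and 18.4 and 17 CPM with GSK343 (0.48, edgeR adjusted p = 0.00616).

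NF-kB response genes were also more often higher than lower with X5050. NF-kB is the transcription factor family of inflammatory signalling. Of 28 tested, 10 were higher (35.7%) and 3 lower (10.7%), and the median was 0.51. Leaving out 1 library gave 8 to 11 higher, and 1 lower without GSK343 replicate 2 or X5050 replicate 1. The site GGAATTTCC, or GGAAATTCC on the reverse strand, was found in 10 of 26 list members with a RefSeq promoter and in 0.461% of all 35116. The windows around it are shown for 4 members higher with X5050 and, for contrast, for CXCL2, which was not called. CXCL3, CXCL10, NFKBIA, REL and ICAM1 also hold the site and are not shown. Of these NFKBIA and CXCL10 were higher with X5050 and REL was not called, so the windows shown do not give the share of holders that were higher. CXCL10 did not keep its call with each library left out. It gave 1.58 without GSK343 replicate 2 and 1.71 without X5050 replicate 1. Capitals mark the site, in GRCh38.p14.

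CXCL8, chr4:73740448-73740516 (+): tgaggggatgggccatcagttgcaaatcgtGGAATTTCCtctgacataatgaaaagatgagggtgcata
CXCL1, chr4:73869285-73869353 (+): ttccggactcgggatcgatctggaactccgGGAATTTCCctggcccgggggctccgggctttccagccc
NFKB1, chr4:102501281-102501349 (+): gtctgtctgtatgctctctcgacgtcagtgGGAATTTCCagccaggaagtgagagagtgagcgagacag
TNFRSF9, chr1:7940874-7940942 (-): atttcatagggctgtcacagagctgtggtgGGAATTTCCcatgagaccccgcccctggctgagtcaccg
CXCL2, chr4:74099234-74099302 (-): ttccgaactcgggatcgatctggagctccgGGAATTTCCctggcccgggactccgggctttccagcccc

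CXCL1 and CXCL2 hold the same site and gave different values. CXCL1, a neutrophil chemokine, had 1.02 and 1.21 CPM with X5050, against 0.389 and 0.37 CPM with GSK343 (1.54 ± 0.37, edgeR adjusted p = 0.00606). CXCL2, its close relative, had 7.39 and 11 CPM with X5050 and 7.96 and 10.4 CPM with GSK343, and the groups overlapped fully (edgeR adjusted p = 0.989). The test of a difference between the 2 genes was not made, and reads of such close relatives can be misassigned.

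Several of the pathway's own components were in the higher group, while REL was not called (0.36). NFKB1, which encodes the p50 subunit, had 42.1 and 40.8 CPM with X5050, against 21.8 and 22.7 CPM with GSK343 (0.90 ± 0.13, edgeR adjusted p = 8.84e-05). RELB had 10.8 and 11.1 CPM with X5050 and 2.3 and 3.95 CPM with GSK343 (1.80 ± 0.25, edgeR adjusted p = 0.000282). NFKBIA, the inhibitor that the pathway induces, had 44.4 and 51.4 CPM with X5050 and 14 and 20.6 CPM with GSK343 (1.46 ± 0.27, edgeR adjusted p = 0.00739). None of these overlapped. TNFRSF9, a costimulatory receptor, and SOD2, the mitochondrial superoxide dismutase, were higher by 1.39 ± 0.18 and 0.59 ± 0.09. IER3, an early response gene, went the other way, with 58.1 and 67.2 CPM with X5050 and 124 and 173 CPM with GSK343 (-1.25, edgeR adjusted p = 0.000143). TNF, IL6 and TNFAIP3 were not called, at 0.70, 0.27 and 0.30 log2 units.

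Immediate early genes, which answer growth signals within minutes, were more often lower than higher with X5050. Of 23 tested, 10 were lower (43.5%) and 4 higher (17.4%), with a median of -0.29. There were 6 lower calls without GSK343 replicate 2 or without X5050 replicate 2, and 2 higher calls without X5050 replicate 1. EGR1, a zinc finger factor induced by ERK signalling, had 329 and 286 CPM with X5050, against 740 and 878 CPM with GSK343 (-1.39 ± 0.11, edgeR adjusted p = 3.75e-07). EGR2 had 0.61 and 0.621 CPM with X5050 and 2.62 and 5.18 CPM with GSK343 (-2.66 ± 0.37, edgeR adjusted p = 8.35e-05, and -2.06 without GSK343 replicate 2). KLF6, a Kruppel-like factor, had 130 and 141 CPM with X5050 and 78.3 and 72.2 CPM with GSK343 (0.85 ± 0.10, edgeR adjusted p = 1.16e-05). The EGR genes and KLF6 thus lay on opposite sides, each without overlap. FOS and JUN were not called (-0.32 and 0.20).

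Among genes of ERK signalling and its feedback, 7 of 23 were lower with X5050 (30.4%) and 2 higher, with a median of 0.05. There were 6 higher without X5050 replicate 2 and 1 higher without GSK343 replicate 1. FGFR1, a fibroblast growth factor receptor, had 0.576 and 0.548 CPM with X5050, against 3.61 and 3.89 CPM with GSK343 (-2.73 ± 0.39, edgeR adjusted p = 0.000104). ERRFI1, a feedback inhibitor of EGF receptors, had 4.74 and 5.88 CPM with X5050 and 16.9 and 15.3 CPM with GSK343 (-1.60 ± 0.16, edgeR adjusted p = 4.25e-06). DUSP4 and SPRY4, further feedback inhibitors, were lower with X5050, at -1.55 ± 0.26 and -0.62 log2 units. PHLDA1 was the larger of the 2 higher with X5050, at 18.9 and 12.2 CPM against 7.57 and 6.69 CPM with GSK343 (1.13 ± 0.19, edgeR adjusted p = 0.00129).

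Interferon-stimulated genes were called in both directions, with 7 of 32 higher (21.9%) and 6 lower (18.8%) and a median of -0.01. Of all genes tested 10.4% were higher and 16.8% lower, so the lower share was near that of all genes. ISG15, IFIT2 and USP18 did not keep their calls with each library left out. Without X5050 replicate 1 they gave 0.47, 1.33 and -0.74. Those higher with X5050 included the IFIT genes, which bind foreign RNA. IFIT3 had 7.96 and 4.57 CPM with X5050, against 1.52 and 1.79 CPM with GSK343 (1.92 ± 0.27, edgeR adjusted p = 9.98e-05). IFIT1 had 45 counts over both X5050 libraries and 2 over both GSK343 libraries, a ratio of 24 (counting interval 6.27 to 204), and OASL 92 counts and 6 counts. Those lower with X5050 included MX2, OAS3 and PARP14. MX2, a dynamin-like antiviral protein, had 0.441 and 1.06 CPM with X5050 and 6.23 and 11.1 CPM with GSK343 (-3.54 ± 0.39, edgeR adjusted p = 1.52e-05, and -4.20 without X5050 replicate 2). OAS3, which makes the RNase L activator, had 6.64 and 7.89 CPM with X5050 and 25 and 27.8 CPM with GSK343 (-1.86 ± 0.15, edgeR adjusted p = 3.64e-07).

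Antigen presentation genes were lower with X5050 where called, 6 of 16 (37.5%) with 0 higher and a median of -0.13. HLA-B had 0.474 and 1.32 CPM with X5050, against 9.13 and 13.3 CPM with GSK343 (-3.66 ± 0.43, edgeR adjusted p = 9.39e-05), and gave -3.03 without X5050 replicate 1 and -4.46 without X5050 replicate 2. HLA-C had 6 and 8.44 CPM with X5050 and 18.5 and 23.9 CPM with GSK343 (-1.56 ± 0.22, edgeR adjusted p = 0.000143). PSMB9, an immunoproteasome subunit, had 1.39 and 3.22 CPM with X5050 and 5.34 and 7.89 CPM with GSK343 (-1.53 ± 0.32, edgeR adjusted p = 0.00242, and -2.17 without X5050 replicate 2). The X5050 libraries were below the GSK343 ones in each, although HLA genes are polymorphic and share sequence, so their reads may be split. B2M, the light chain, was not called (0.23, edgeR adjusted p = 0.082).

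The Schlafen genes, a cluster that includes the replication stress restriction factor SLFN11, had 4 of 6 lower with X5050 and a median of -2.14. SLFN11 had 0.136 and 0.146 CPM with X5050, against 6.48 and 6.01 CPM with GSK343 (-5.43 ± 0.36, edgeR adjusted p = 8.7e-08). SLFN5 had 0.983 and 1.79 CPM with X5050 and 5.17 and 7.65 CPM with GSK343 (-2.22 ± 0.38, edgeR adjusted p = 0.000762). SLFN13 followed at -2.07 ± 0.42, with -1.40 without X5050 replicate 1 and a larger difference without X5050 replicate 2. SLFN12 lost its call whichever of the 4 libraries was left out (edgeR adjusted p between 0.0653 and 0.278), and SLFN14 gave 0.76 without a call (edgeR adjusted p = 0.0583).

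Adhesion receptors were lower for 9 of 23 (39.1%) and higher for 4 (17.4%), with a median of -0.25 and 5 lower without GSK343 replicate 2. ITGB2, the beta 2 integrin of leukocytes, had 0.305 and 0.548 CPM with X5050, against 5.73 and 7.59 CPM with GSK343 (-3.96 ± 0.39, edgeR adjusted p = 3.19e-06). ITGA2B, the platelet integrin that pairs with ITGB3, had 24.4 and 20.6 CPM with X5050 and 47.4 and 37.6 CPM with GSK343 (-0.92 ± 0.16, edgeR adjusted p = 0.000504). ICAM3 had 20.4 and 15.2 CPM with X5050 and 7.79 and 7.62 CPM with GSK343 (1.21 ± 0.17, edgeR adjusted p = 7.2e-05). The 2 chains of the platelet integrin, ITGA2B and ITGB3, were thus called in opposite directions. Of 10 megakaryocyte and platelet genes tested, 3 were higher and 2 lower, with 1 higher and 1 lower without GSK343 replicate 1 and 1 lower without X5050 replicate 2.

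**Figure D3:**
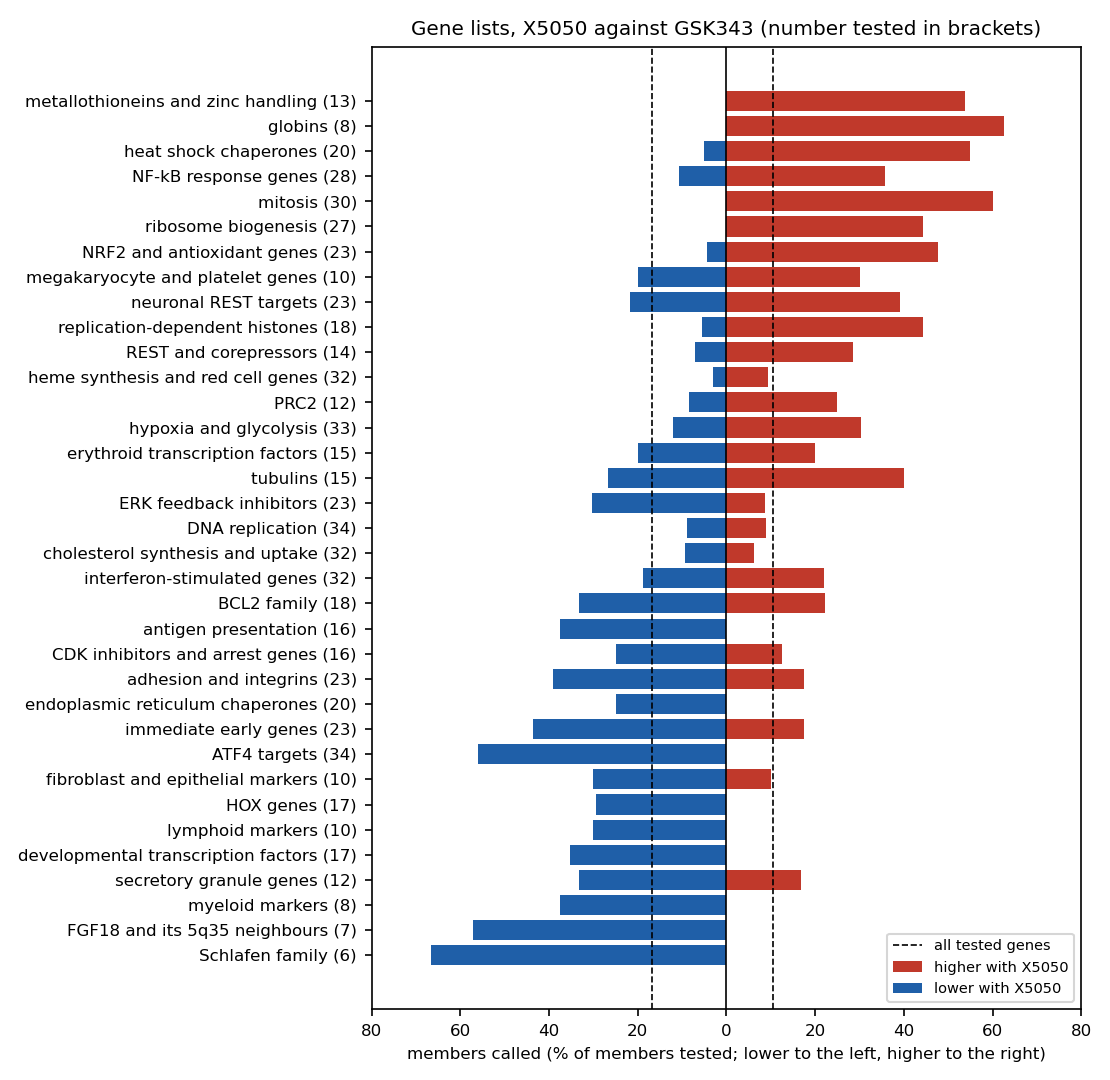
Share of the tested members of each gene list, other than the K562 identity markers, called higher with X5050 (red bars, to the right) or lower (blue bars, to the left), in percent, with the number tested in brackets and lists ordered by their median log2 fold change. Dashed lines mark the shares of all genes tested, 10.4% higher and 16.8% lower. Metallothioneins, globins, heat shock, mitosis and ribosome biogenesis have long red bars, while ATF4 targets (55.9%), the genes around FGF18 (57.1%) and the Schlafen family (66.7%) have long blue bars.

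Globins, the oxygen carriers of red cells, were higher with X5050 for 5 of 8 genes (62.5%) with 0 lower and a median of 1.67, but the calls depended on single libraries. HBE1, the embryonic beta-like globin, had 1060 and 571 CPM with X5050, against 305 and 238 CPM with GSK343 (1.59 ± 0.30, edgeR adjusted p = 0.0106). Both X5050 libraries were above both GSK343 ones, yet the call was lost without GSK343 replicate 2 (edgeR adjusted p = 0.0652). HBG2, a fetal globin and a near-identical copy of HBG1, had 2280 and 1030 CPM with X5050 and 642 and 341 CPM with GSK343 and was not called (edgeR adjusted p = 0.0546). HBZ, the embryonic alpha-like globin, was the call that stood throughout, but on few reads. It had 39 counts over both X5050 libraries (0.949 and 0.402 CPM) and 4 over both GSK343 libraries (0.0708 and 0.0617 CPM). Its log2 fold change was 3.29 ± 0.61 (edgeR adjusted p = 0.000985), and 2.59 without X5050 replicate 1. The list had 1 higher call without GSK343 replicate 2 and 3 without X5050 replicate 1. It had 7, HBG2 among them, without X5050 replicate 2, with DESeq2, with RLE factors, with the GC trend removed, with the replicate block or with all 12 libraries.

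Of 32 other red cell genes, for heme synthesis and the cell membrane, 3 were higher (9.38%) and 1 lower (3.12%), while 14 were higher without X5050 replicate 2, and 2 lower without GSK343 replicate 1 or X5050 replicate 1. TFRC, the transferrin receptor, had 1440 and 623 CPM with X5050 and 563 and 504 CPM with GSK343 (edgeR adjusted p = 0.112). Its X5050 replicate 1 stood apart from the other 3 libraries. RHAG and ANK1, membrane proteins of the red cell, were higher by 0.71 ± 0.11 and 0.64 ± 0.11, and stood with any library left out. Of 15 erythroid transcription factors, 3 were higher and 3 lower, with 7 higher without X5050 replicate 2, 1 without GSK343 replicate 1 and 0 without X5050 replicate 1, and 5 lower without GSK343 replicate 1. RUNX1, a factor of early blood cells, had 105 and 141 CPM with X5050 and 205 and 198 CPM with GSK343 (-0.72 ± 0.14, edgeR adjusted p = 0.0027), and LYL1 gave -0.62 ± 0.11.

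Mitotic genes were higher with X5050 than with GSK343 by modest amounts. Of 30 tested, 18 were higher (60.0%) and 0 lower, with a median of 0.37, and leaving out 1 library gave 14 to 20. KIF20A, a kinesin of cytokinesis, had 78.1 and 81.2 CPM with X5050, against 49.9 and 41.8 CPM with GSK343 (0.80 ± 0.11, edgeR adjusted p = 5.25e-05). CCNB2, a mitotic cyclin, had 91.2 and 90.6 CPM with X5050 and 61.2 and 56.2 CPM with GSK343 (0.63 ± 0.09, edgeR adjusted p = 0.000119). BUB1 and AURKA, kinases of the spindle, were higher by 0.63 ± 0.09 and 0.58 ± 0.09. Of 34 DNA replication genes, 3 were higher and 3 lower (8.82% each), below the 10.4% and 16.8% of all genes tested, with a median of 0.02. Their higher count was 7 without X5050 replicate 2 and 1 without GSK343 replicate 2, and the lower count 1 without GSK343 replicate 1 or X5050 replicate 2. CDT1, a licensing factor of replication origins, had 208 and 230 CPM with X5050 and 332 and 366 CPM with GSK343 (-0.67 ± 0.10, edgeR adjusted p = 0.000106).

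CDKN1A, the p21 inhibitor of cyclin-dependent kinases, was the clearest of the arrest genes. It had 25.4 and 27.7 CPM with X5050, against 92.4 and 90.9 CPM with GSK343 (-1.79 ± 0.12, edgeR adjusted p = 1.22e-07). BTG2, an antiproliferative gene, had 34.6 and 28.4 CPM with X5050 and 58.8 and 53.2 CPM with GSK343 (-0.83 ± 0.11, edgeR adjusted p = 4.85e-05). Of 16 such genes 4 were lower (25.0%) and 2 higher (12.5%), and both counts depended on single libraries. In the BCL2 family, which decides cell survival, 6 of 18 were lower (33.3%) and 4 higher (22.2%). Of all genes tested, 16.8% were lower and 10.4% higher. MCL1, a survival member, had 671 and 614 CPM with X5050 and 379 and 424 CPM with GSK343 (0.68 ± 0.11, edgeR adjusted p = 0.000229). BCL2L11 and BBC3, which promote death, were lower with X5050, at -0.58 ± 0.11 and -0.47 ± 0.09, while BCL2, a survival member, was lower too (-1.26) and BAX, which promotes death, was higher (0.60). The higher count of the family was 2 without GSK343 replicate 1, GSK343 replicate 2 or X5050 replicate 1.

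Some stress programmes separated the drugs by direction. Targets of ATF4, the factor of the amino acid response, were lower with X5050 for 19 of 34 (55.9%) with 0 higher and a median of -0.44. The count was 9 without GSK343 replicate 2 and 11 without X5050 replicate 1. GDF15, a stress cytokine, had 246 and 250 CPM with X5050, against 547 and 594 CPM with GSK343 (-1.20 ± 0.10, edgeR adjusted p = 6.92e-07). SHMT2, a mitochondrial enzyme of serine and folate metabolism, had 263 and 310 CPM with X5050 and 492 and 474 CPM with GSK343 (-0.76 ± 0.09, edgeR adjusted p = 2.75e-05). DDIT3, the CHOP factor, had 66 and 87 CPM with X5050 and 115 and 122 CPM with GSK343 (-0.63 ± 0.12, edgeR adjusted p = 0.00081). ASNS, asparagine synthetase, was lowest in X5050 replicate 1, with 747 and 1180 CPM with X5050 and 1380 and 1480 CPM with GSK343. Its call was lost without that library (edgeR adjusted p = 0.163), GSK343 replicate 1 (0.066) or GSK343 replicate 2 (0.151). Endoplasmic reticulum chaperones were lower for 5 of 20 (25.0%) and higher for 0, beside 16.8% of all genes tested called lower. The count of lower chaperones depended on single libraries, and HSPA5 was not called (edgeR adjusted p = 0.804).

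Heat shock chaperones were higher with X5050 for 11 of 20 (55.0%) and lower for 1, with a median of 0.54. HSPH1, a cofactor of HSP70, had 110 and 80.9 CPM with X5050, against 36 and 47.1 CPM with GSK343 (1.19 ± 0.15, edgeR adjusted p = 7.22e-05). DNAJB4 had 29.8 and 30.6 CPM with X5050 and 14.7 and 17.4 CPM with GSK343 (0.91 ± 0.11, edgeR adjusted p = 3.16e-05). HSPA1A and HSPA1B are near-identical copies, and only HSPA1B was called (0.93 ± 0.20). The count of higher chaperones was 6 in a fit that also held the DMSO libraries. NRF2 targets, the genes of the oxidative stress response, were higher for 11 of 23 (47.8%) and lower for 1. FTL, the ferritin light chain, had 2010 and 1610 CPM with X5050 and 841 and 880 CPM with GSK343 (1.07 ± 0.11, edgeR adjusted p = 5.37e-06). NQO1, a quinone reductase, had 86.7 and 85.4 CPM with X5050 and 42.7 and 55.5 CPM with GSK343 (0.81 ± 0.12, edgeR adjusted p = 0.000113). GCLC, of glutathione synthesis, was the member lower with X5050 (-0.43, edgeR adjusted p = 0.00467), a call lost without GSK343 replicate 2 (0.0751) or X5050 replicate 1 (0.0512). The higher count was 7 with only the X5050 and GSK343 libraries in the fit or with DMSO added.

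Ribosome biogenesis genes were higher for 12 of 27 (44.4%) and lower for 0, with a median of 0.32. That count was 7 without X5050 replicate 1 and 23 without X5050 replicate 2. POLR1B, a subunit of RNA polymerase I, had 98 and 80 CPM with X5050, against 61.3 and 58.5 CPM with GSK343 (0.57 ± 0.10, edgeR adjusted p = 0.000727). NOLC1, a nucleolar phosphoprotein, had 205 and 154 CPM with X5050 and 111 and 116 CPM with GSK343 (0.66 ± 0.13, edgeR adjusted p = 0.00141). Of 33 hypoxia and glycolysis genes, 10 were higher (30.3%) and 4 lower, with 4 higher without GSK343 replicate 1. PGAM1, a glycolytic enzyme, was higher (0.72 ± 0.13) and NDRG1, a hypoxia gene, was lower, with 8.1 and 9.72 CPM with X5050 and 19.8 and 21.6 CPM with GSK343 (-1.22 ± 0.14, edgeR adjusted p = 1.29e-05). Of 32 cholesterol genes 2 were higher (6.25%) and 3 lower (9.38%), with a median of 0.02, and both counts depended on single libraries. Of all genes tested, 10.4% were higher and 16.8% lower.

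Among 18 matched histone genes of 40 listed, 8 were higher (44.4%) and 1 lower (5.56%). The higher count depended strongly on single libraries. HIST2H2BF gave 0.82 ± 0.11, with 72.6 and 61.5 CPM with X5050 and 40.7 and 35.3 CPM with GSK343. Histone copies are close in sequence, and this caution holds for the tubulins too. TUBB2B had 8.61 and 9.68 CPM with X5050, against 33.9 and 31.3 CPM with GSK343 (-1.83 ± 0.16, edgeR adjusted p = 9.6e-07). TUBB2A, its close copy, had 49.1 and 44.6 CPM with X5050 and 32.4 and 33.8 CPM with GSK343 (0.50 ± 0.10, edgeR adjusted p = 0.00163). Of 15 tubulins 6 were higher and 4 lower, with 2 to 3 higher without either GSK343 library and 1 to 2 lower without GSK343 replicate 2 or either X5050 library. In secretory granule genes, 2 of 12 were higher (16.7%) and 4 lower (33.3%), beside 10.4% and 16.8% of all genes tested. The lower count was 2 without GSK343 replicate 1, GSK343 replicate 2 or X5050 replicate 1.

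Markers of other cell types were lower with X5050 where called, with 1 exception. Of 8 myeloid markers tested 3 were lower, of 10 lymphoid markers 3 were lower, and 0 were higher in either list, beside 16.8% of all genes tested called lower. CSF1R, the third myeloid call, was lost in most alternatives, with edgeR adjusted p of 0.609 without GSK343 replicate 2, 0.244 without X5050 replicate 1 and 0.105 without X5050 replicate 2, which left 2. The lymphoid count was 2 without GSK343 replicate 2 or X5050 replicate 2. The summed level of the myeloid list was 28.2 and 37.5 CPM with X5050 and 63.3 and 85.1 CPM with GSK343, and of the lymphoid list 58.8 and 57.7 CPM with X5050 and 77.4 and 79.7 CPM with GSK343. CD33 had 14 and 22.1 CPM with X5050, against 37.3 and 48.9 CPM with GSK343 (-1.26 ± 0.19, edgeR adjusted p = 0.0004), and LYZ gave -1.21 ± 0.15. ELANE and S100A8, which define granulocytes, were too low to be tested. Of 10 fibroblast and epithelial markers, 3 were lower and 1 higher. COL1A1 had 2.47 and 2.52 CPM with X5050 and 16.3 and 19.7 CPM with GSK343 (-2.85 ± 0.22, edgeR adjusted p = 2.45e-07). The culture is 1 cell line, and what part these markers have in the other results was not tested.

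Levels in the DMSO and both-drug libraries, which the test left out or used only for its spread and its filter of low genes, show where each separation lies. They are descriptions with no test. Of the 185 genes higher with X5050 beyond 1 log2 unit, the DMSO level lay between the drugs and nearer GSK343 for 42.2%, between and nearer X5050 for 19.5%, and below both for 34.6%. Of the 1893 genes lower with X5050 beyond 1 log2 unit, it lay nearer X5050 for 55.8%, nearer GSK343 for 22.0% and below both for 17.7%. Most of the large separations were thus genes for which DMSO was closer to, or below, the drug with the lower level. SLFN11 had 0.136 and 0.146 CPM with X5050, and 0.165 and 0.08 CPM in DMSO. KBTBD11 had 0.743 and 0.84 CPM in DMSO, a level between its values with X5050 and GSK343.

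With both drugs together for 72 h, 61.1% of the 185 genes higher with X5050 lay above both single drugs, and of the 1893 lower genes 51.5% lay between them and nearer X5050 and 21.2% below both. CXCL8 had 199 and 333 CPM with both drugs, above the 51.2 and 41.9 CPM of X5050 alone, and 0.949 and 0.52 CPM in DMSO. Across the time course of both drugs it had 173 and 187 CPM at 8 h, 1130 and 1150 CPM at 24 h and 199 and 333 CPM at 72 h. MT2A had 245 and 427 CPM with both drugs, and ARC 148 and 140 CPM. TNS4 had 0.131 and 0.305 CPM with both drugs, against 0.0678 and 0.0731 CPM with X5050 alone. It had 0.619 and 0.24 CPM in DMSO, so the both-drug and DMSO libraries overlapped.

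Libraries of both drugs also entered the test of X5050 against GSK343, for its spread and its filter of low genes. A fit of both drugs at 72 h against DMSO, with 8 libraries and none of the single-drug ones, shares no library with either side of the comparison. It called 19.6% of 18833 genes higher and 17.9% lower with both drugs, 7063 genes in all, and 4707 without replicate 1 of both drugs. Of the 185 genes higher with X5050 than with GSK343 beyond 1 log2 unit, 118 were higher and 0 lower with both drugs than in DMSO, with a median log2 fold change of 1.45. Of the 1893 genes lower with X5050, 1573 were tested there, and 336 were higher and 371 lower, with a median of -0.08. CXCL8 was higher with both drugs by 8.49 ± 0.32 log2 units (edgeR adjusted p = 2.94e-08). Of the 28 NF-kB response genes tested 26 were higher with both drugs, of 13 metallothionein and zinc genes 11 were higher, and of 23 neuronal REST targets 17 were higher. Of the 30 mitotic genes 21 were lower with both drugs than in DMSO, and 33 of 34 DNA replication genes were lower.

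**Figure D4:**
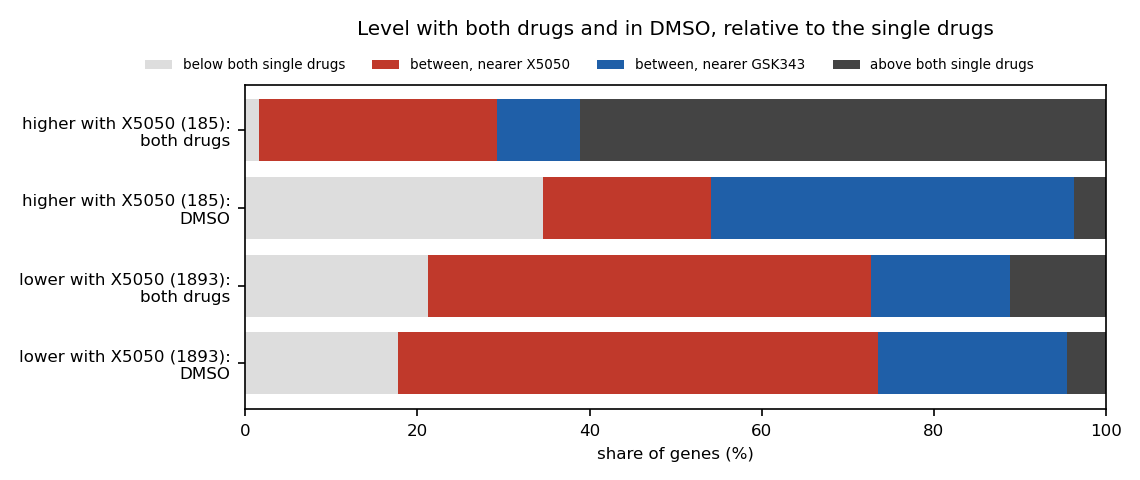
Share of the called genes beyond 1 log2 unit, in percent, by where the mean level with both drugs and the mean level in DMSO lie relative to the 2 single drugs, for the 185 genes higher and the 1893 genes lower with X5050 than with GSK343. For the higher genes the both-drug level is above both single drugs in 61.1%, and for the lower genes the DMSO level is nearer X5050 in 55.8%.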

How the data were processed

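Gene counts of 12 drug-arm libraries were analysed. The deposited files hold raw counts per gene in 3 columns, and the reverse-strand column was used, because the libraries were prepared with a stranded kit per the labels and held 8.01 to 9.77 times more reverse than forward counts. Per the submitters' processing notes, hg19, Trimmomatic 0.38 and STAR 2.7.3a were used, and the annotation release is not given in the sources used here. The 4 rows of unassigned reads at the head of each file stayed out of library sizes and tests.

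X5050 was tested against GSK343 with edgeR 4.0.16 in R 4.3.3, with TMM factors between 0.872 and 1.08, filterByExpr, a robust quasi-likelihood fit and Benjamini-Hochberg adjustment at 0.05 over 19339 genes. The fit held the 10 treated libraries, which share 1 estimate of the spread (biological coefficient of variation 0.109, 5 residual degrees of freedom). Both drugs at 72 h were tested against DMSO in a separate fit of 8 libraries (0.125 and 4). Standard errors are approximate, from dividing the log2 fold change by the root of its F statistic. With 2 libraries a side, the smallest p an exact permutation test can give is 0.333, so no single value was tested alone. Where a group had 0 counts, the fold is a bound against 3 counts over the group. The 95% counting intervals cover counting error only. CPM values use TMM factors over the 12 libraries.

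The gene lists and the contrast were chosen with earlier results of these data known. Named genes were EZH2, REST and FGF18, the 14 largest differences in each direction among called protein-coding genes with separate libraries and at least 2 CPM in the higher group, the 4 largest of other types, and up to 4 called members per list with the lowest p. Other list members that the text names were chosen after their values were seen. Gene names came from GENCODE 29, which matched 90.6% of 57736 identifiers and 816 of 848 list entries. Promoters came from RefSeq. The code was checked on simulated data. Alternatives used DESeq2 1.42.0, RLE factors, no filter beyond 1 count, removal of a GC trend (loess span 0.3; GC known for 96.2% of genes), the replicate number as a block, unstranded counts, other sets of libraries and each library left out.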

Additional observations from a re-analysis of the deposited data

How the results depend on the processing

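No named gene that was called changed direction under any alternative that was run, while EZH2, which was not called, lay between -0.14 and 0.14. The count of genes higher with X5050, 2019, was 1106 with only the X5050 and GSK343 libraries in the fit and 1316 with all 12 libraries and DMSO, and ran between 1261 and 3372 with 1 library left out. The count of genes lower with X5050, 3247, ran between 1909 and 2815 with 1 library left out. The 7063 genes called for both drugs against DMSO ran between 4707 and 7965. The causes were not tested. The median shift of the log2 fold changes was 0.05 with RLE factors or DESeq2 and 0.07 with the GC trend removed. It was 0.08 with no filter beyond 1 count or without X5050 replicate 2. The share of calls higher with X5050, 38.3%, was 48.5% with DESeq2, 46.3% with RLE factors, 47.3% with the GC trend removed, 49.3% with no filter beyond 1 count and 54.5% without X5050 replicate 2. Of 163 named calls, leaving out GSK343 replicate 2 lost 30, X5050 replicate 1 lost 22, GSK343 replicate 1 lost 12 and X5050 replicate 2 lost 11. The fit on the X5050 and GSK343 libraries alone lost 14, and every other alternative lost 8 or fewer. With the replicate number as a block, 2017 genes were higher and 3291 lower, and 2 named calls were lost. Deviations of same-numbered replicates correlated at 0.16 between X5050 and GSK343, at 0.16 and 0.18 between each of them and both drugs at 72 h, at 0.35 between DMSO and GSK343 and at -0.08 between DMSO and X5050, with the other pairs of groups between -0.11 and 0.14. The labels do not say that a number marks a shared culture or day, and with 2 replicates these values do not settle whether the numbers pair the libraries. Among gene lists, with the X5050 and GSK343 libraries only, 11 ATF4 targets were lower, against 19, and 4 histones and 3 tubulins higher, against 8 and 6, and red cell genes numbered 5 to 8 higher, against 3, with DESeq2, the block, the GC trend removed or no filter. Genes with few X5050 counts are limited by depth: those with 0 are given as bounds, those with up to 3 with counting intervals or counts, and the fitted folds of the others rest on few reads.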
